A study of Drosophila melanogaster with 3 samples.

Results

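Binding of FoxP, a forkhead transcription factor, was described at 36 Drosophila melanogaster genes that guide axons or specify synaptic partners, out of 13968 protein-coding genes on the chromosome arms. The genes were taken from a list by their symbols, and all 36 were found in the annotation. Chromatin came from whole prepupae of a transgenic line (fd85E-GFP) in which FoxP, also named fd85E, carries eGFP at its C-terminal end, and anti-GFP antibody was used for the precipitation. The animals were of both sexes, pooled, and their age is given as unknown. The 3 biological replicates are 1 group, all with the transgene, so there was no second condition to compare. Tissues were not separated, so binding in more cells and stronger binding per cell cannot be told apart, and neurons were only part of the material. A summit is the position that the authors gave as the peak of a bound region. It was assigned to a gene when it lay inside the gene or up to 2 kb upstream of it. The thresholded list holds 2395 regions on the arms (the authors' reproducible part of the regions called on pooled reads), and the pooled list holds 30000 regions that include background. Each region has a signal value from the authors with no stated scale, and rank 1 is the highest signal value within a list. Read depth is unknown, and control chromatin was not analysed here.

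Growing axons read secreted and membrane-bound cues through receptors on the growth cone. Slit repels axons through Robo receptors at the midline, netrins attract them through Frazzled and repel them through Unc-5, and semaphorins act through plexins. Homophilic adhesion molecules (fasciclins, Dscams, N-cadherin) and teneurins then help axons bundle, separate their branches and find partners. In the prepupa the nervous system is being rebuilt from its larval to its adult form. Fly FoxP is best known from the brain, where it is expressed in subsets of neurons.

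Of the 36 guidance genes, 14 (38.9%) had at least 1 thresholded summit, against 2037 of all protein-coding genes (14.6%, 95% Wilson interval 14.0 to 15.2). These 14 genes held 21 thresholded summits. When replicate 1, 2 or 3 was left out and a region had to be among the best-ranked of both others, 9, 9 and 10 genes with 11, 12 and 12 summits were left, against 10.7%, 10.1% and 10.5% of all protein-coding genes. This only filtered the thresholded regions, which were still those called with the reads of all 3 replicates. The 14 were sli, NetA, NetB, fra, unc-5, Sema1a, PlexA, drl, Ten-a, Ten-m, caps, Fas2, Fas3 and Ptp10D. The other 22 had summits in the pooled list only. Within 500 bp of an annotated start, 5 guidance genes (13.9%) had a thresholded summit, against 8.96% of all protein-coding genes. In the pooled list all 36 had a summit, against 56.5% of all protein-coding genes. None of these backgrounds was matched for gene length.

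The sequence around 5 of these summits is shown: the 4 best-ranked ones at guidance genes, and the best-ranked one of Fas3, the gene with the most summits, which holds a forkhead match. Each is the 101 bases centred on the summit, on the plus strand of dm6, read from the RefSeq copy of release 6. Capitals mark every match to the forkhead consensus on either strand. The consensus has 7 bases, NNAAANA, with A or G at the first place and C or T at the second and the sixth place.
Ptp10D intron, chrX:11623065-11623165: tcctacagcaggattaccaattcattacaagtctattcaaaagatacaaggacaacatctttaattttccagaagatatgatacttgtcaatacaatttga
Ten-a intron, chrX:12226724-12226824: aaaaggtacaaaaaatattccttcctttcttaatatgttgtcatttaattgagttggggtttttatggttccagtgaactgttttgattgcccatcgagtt
Sema1a intron, chr2L:8575082-8575182: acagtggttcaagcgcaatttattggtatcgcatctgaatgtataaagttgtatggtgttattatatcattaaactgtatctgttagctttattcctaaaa
Ten-m promoter, chr3L:22407861-22407961: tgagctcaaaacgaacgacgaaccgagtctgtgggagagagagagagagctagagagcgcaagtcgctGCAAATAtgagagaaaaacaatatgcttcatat
Fas3 intron, chr2L:18327686-18327786: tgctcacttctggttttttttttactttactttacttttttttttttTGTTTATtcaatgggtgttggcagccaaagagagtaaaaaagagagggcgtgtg

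The windows at Ptp10D, Ten-a and Sema1a, the 3 best-ranked ones, had no match within 50 bp of the summit, nor within 100 bp. That says only that these letters are not there. The Fas3 window held 1. The Ten-m promoter window also held 1 match, beside a run of GA repeats. The GAGA factor core GAGAG occurred 11 times within 100 bp of that summit, counting overlaps and both strands. Over the 21 summits, a forkhead match lay within 100 bp of 11 (52.4%), against 50.8% of all 2395 thresholded summits on the arms. A stricter form (TNTTTAC with A or G as N, both strands, whose reverse complement is one form of the consensus) was at 1 of 21 (4.76%, 95% Wilson interval 0.846 to 22.7) against 12.5%, and GAGAG at 10 (47.6%, 28.3 to 67.6) against 33.3%. Within 100 bp of the summit the median GC content was 33.8% at guidance genes and 36.8% over all thresholded summits.

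Guidance genes are long, and long genes more often held a summit. The median length of the 36 was 40.3 kb, against 2.16 kb for all protein-coding genes, and 25 of them (69.4%) were over 20 kb, against 7.3%. Among genes over 20 kb, 12 of 25 guidance genes (48.0%) had a thresholded summit, against 41.5% of all such genes. Among genes of 20 kb or less, 2 of 11 (18.2%) had one, PlexA and drl, against 12.5%. The median length was 54.0 kb for guidance genes with a thresholded summit and 31.7 kb for those without. In narrower classes the guidance genes lay on either side of the background. They were below it from 5 to 20 kb (2 of 10, against 26.3%) and from 20 to 50 kb (3 of 11, 27.3%, against 39.5%). They were above it over 50 kb (9 of 14, 64.3%, against 46.0%). The 1 guidance gene under 5 kb, comm2, had none, against 9.21% of genes of that size.

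**Figure D1:**
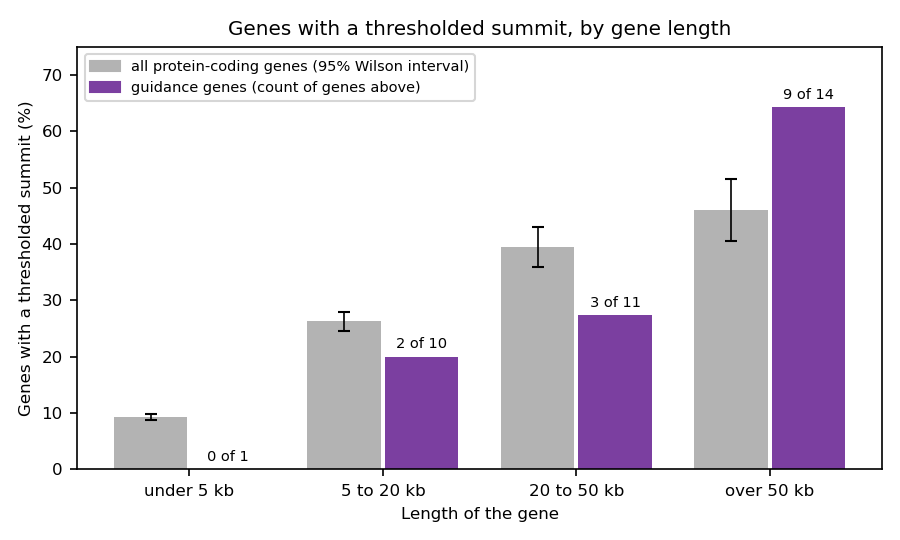
Share of genes with a thresholded summit inside the gene or up to 2 kb upstream (%), by length of the gene, for all protein-coding genes (grey, 95% Wilson interval) and for the guidance genes (purple, with counts). The grey bars go from 9.21% under 5 kb to 46.0% over 50 kb, and 9 of 14 guidance genes over 50 kb had a summit.

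Counted per length, the density of thresholded summits at guidance genes was below that of all genes of over 20 kb. There were 1.05 per 100 kb of guidance gene and upstream window (21 summits, exact 95% Poisson interval 0.648 to 1.6, counting error only). Guidance genes over 20 kb (19 summits) had 1.01 per 100 kb (0.609 to 1.58). All genes over 20 kb had 1.7 per 100 kb (1.59 to 1.81) and all protein-coding genes 2.35, where a summit counts for each gene it was assigned to. The sets over 20 kb still differed in length, with a median of 52.6 kb for guidance genes and 37.2 kb for all. Over the pooled list the density was 2.45 per 10 kb at guidance genes and 2.44 at all protein-coding genes. Across the 36 guidance genes, the number of pooled summits and gene length had a Spearman correlation of 0.808 (Pearson 0.799), a description across genes that share the same lists.

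The count was close in the 3 replicates taken separately. The top set of a replicate is its best-ranked regions, as many as the full thresholded list holds. With these, 15, 16 and 14 guidance genes had a summit in replicates 1, 2 and 3. This was 41.7% ± 2.78 (SD, n = 3) of the guidance genes, against 14.6%, 15.3% and 14.9% of all protein-coding genes (mean 14.9% ± 0.377). For genes over 20 kb the shares were 50.7% ± 2.31 of guidance genes and 41.0% ± 0.884 of all such genes (SD, n = 3). In each of the 3 top sets 8 guidance genes (22.2%) had a summit, against 9.68% of all protein-coding genes, a background not matched for gene length. The 8 were sli, NetB, Sema1a, Ten-a, Ten-m, Fas2, Fas3 and Ptp10D, and all also had a thresholded summit. A further 7 guidance genes had one in 1 or 2 top sets and none in the thresholded list, a count whose share over all protein-coding genes was not computed.

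**Figure D2:**
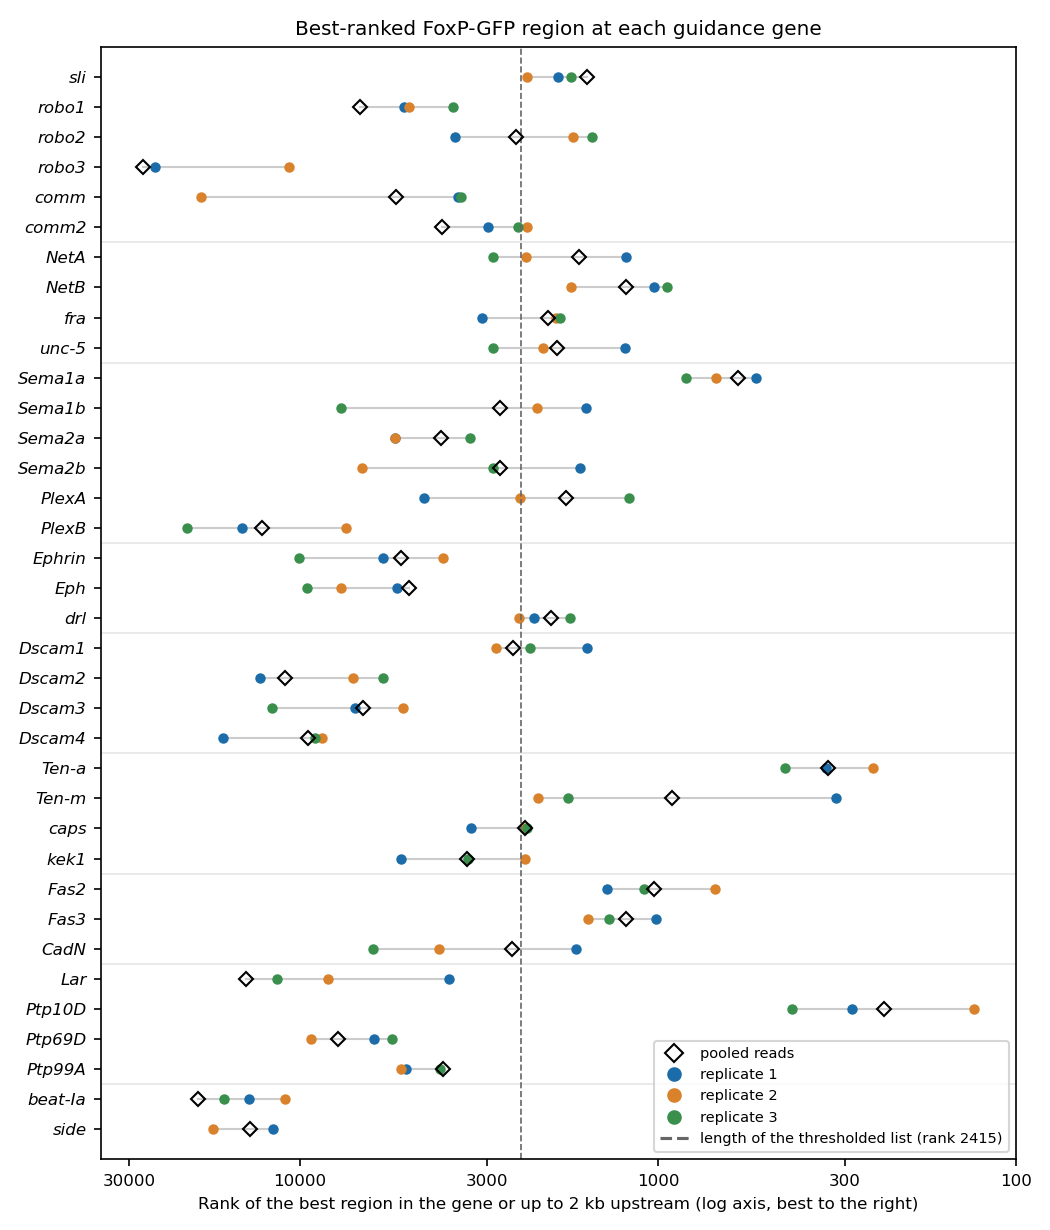
Rank of the best region in each of the 36 guidance genes or up to 2 kb upstream (log axis, best to the right) in the pooled list (diamonds) and in the replicate lists (dots), grouped by role. Ptp10D and Ten-a lie furthest to the right, at pooled ranks 233 and 335, replicate 3 has no region for robo3 and side, and the dashed line marks the length of the thresholded list.

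Matched one by one, all 21 thresholded summits had a region in each replicate list that held the summit. Nearly all of the 2395 thresholded regions on the arms were matched too: 2354, 2371 and 2374 in replicates 1, 2 and 3. For these a replicate summit within 200 bp also counted. The largest shift of a replicate summit from the pooled one had a median of 17 bp over the 21 and was at most 114 bp. Of the 21 regions, 9 (42.9%) overlapped a region in the top sets of all 3 replicates, against 59.1% of all thresholded regions on the arms. Another 8 overlapped such regions in 2 replicates and 4 in 1. The 9 lay at 7 genes (19.4% of guidance genes, against 9.18% of all protein-coding genes, not matched for length): sli, NetB, Sema1a, Ten-a, Ten-m, Fas2 and Ptp10D. The median signal value of the 21 was 168, against 192 for all thresholded regions on the arms, and their median pooled rank was 1578, against 1218.

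**Figure D3:**
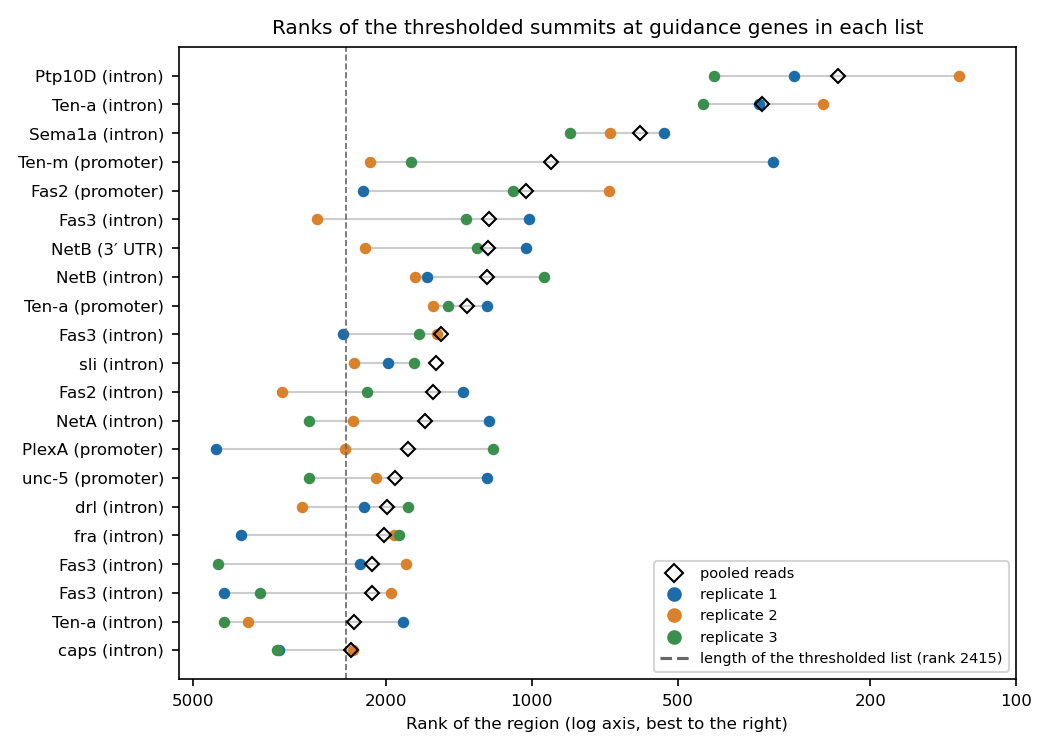
Rank of each of the 21 thresholded summits at guidance genes (log axis, best to the right) in the pooled list (diamonds) and in replicates 1, 2 and 3 (dots), with the class relative to its own gene. The 3 best summits keep ranks of 834 or better in every replicate, and the dashed line marks the length of the thresholded list.

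All 4 genes of the netrin system, 1 of 9 groups by role, had a thresholded summit: both ligands and both receptors. They are 27.8 to 63.3 kb long, and 41.5% of all genes over 20 kb had one. Of the 4, only NetB kept a summit whichever replicate was left out. The summits at the ligand genes were all nearer to a start of another gene. NetA and NetB, both on the X, encode the secreted netrins and had 1 and 2. The NetA summit (X, 14612289 to 14612704, signal value 164) lay in intron 2 of 6, 41337 bp from the nearest NetA start. The start of sbm was nearer, at 9917 bp. The NetA summit ranked 1228, 2341 and 2886 in replicates 1, 2 and 3, so in replicate 3 it was outside the top set. The NetB summit in intron 3 of 8 (X, 14717228 to 14717643, signal value 191) ranked 1643, 1746 and 942. It lay in the longest intron of the gene, 53377 bp long, and 1506 bp from the start of hog, a gene within NetB. The other NetB summit (X, 14689045 to 14689460, signal value 191) was in the 3′ UTR, the only one of the 21 there. It lay 59757 bp from the nearest NetB start and 9685 bp from that of CG5321, the nearest of any protein-coding gene. It ranked 1026, 2207 and 1295, so both NetB regions were in the top set of all replicates.

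The netrin receptor genes lie on 2R. Frazzled (fra), the attractive receptor and relative of vertebrate DCC, had a summit in its first intron, 6174 bp from the start (2R, 12535019 to 12535434, signal value 148). It ranked 3978 in replicate 1 but 1927 and 1880 in replicates 2 and 3. The repulsive receptor gene unc-5 had a summit 124 bp before its second annotated start, 9537 bp into the gene (2R, 15349801 to 15350216, signal value 153). It ranked 1235, 2100 and 2885. Each of these receptor regions was in the top set of 2 replicates.

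In the Slit and Robo system 1 of 6 genes had a thresholded summit, the ligand gene sli. It lay in intron 2 of 20, 3800 bp downstream of an internal start (2R, 15886909 to 15887324, signal value 168), and ranked 1984, 2325 and 1749. It was in the top set of all 3 replicates. Of the receptor genes, robo2 came nearest, with an intron 1 summit at pooled rank 2488 (signal value 132), just outside the threshold, and ranks of 3694, 1725 and 4370. Elsewhere in robo2 or its upstream window, replicate 3 had a region at rank 1527. The best robo1 summit, 294 bp from a start, had pooled rank 6787, and robo3 had a single pooled summit in 40.2 kb, at rank 27483. The commissureless genes comm and comm2, of which comm keeps Robo away from the growth cone of crossing axons, had their best summits 1006 and 735 bp upstream, at pooled ranks 5399 and 4006. The comm summit was matched in replicate 1 alone, at rank 3608. At another place in comm or its upstream window, replicate 3 had a region at rank 3536.

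Of the semaphorins and plexins, Sema1a and PlexA had a thresholded summit. Sema1a encodes a transmembrane semaphorin that acts as a ligand of Plexin A and also as a receptor. Its summit (2L, 8574924 to 8575339, signal value 268) was in intron 3 of 21, an intron of 66730 bp and the longest of the gene, 31802 bp from a start. It ranked 532, 688 and 834, high in every replicate. The PlexA summit was 189 bp upstream of the start (chromosome 4, 1027082 to 1027497, signal value 157). Its ranks were 4492, 2429 and 1201, so only replicate 3 had it in the top set, with replicate 2 just outside. The fourth chromosome held 5 of 80 protein-coding genes with a thresholded summit (6.25%). Eph, Ephrin and PlexB on the same chromosome had none.

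The secreted and remaining semaphorin genes had promoter summits below the threshold. The Sema2b summit 221 bp from a start had pooled rank 2757 and ranks of 1645, 6689 and 2884. At Sema1b it lay 23 bp upstream of a start, at pooled rank 2765, with ranks of 1590 and 2176 in replicates 1 and 2 and no match in replicate 3. The best Sema2a summit was 82 bp upstream of a start, at pooled rank 4046. PlexB, the receptor for the secreted semaphorins, had its best summit 1069 bp upstream, at pooled rank 12713, and it was matched in replicate 2 alone.

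Among the Wnt and ephrin receptor genes, drl had a thresholded summit. It encodes Derailed, a Ryk-family receptor for Wnt5 that keeps axons out of the posterior commissure. The summit lay in intron 1 of 3, 6490 bp from the start (2L, 19196624 to 19197039, signal value 149.8), and ranked 2224, 2975 and 1803. Eph, the only ephrin receptor gene of the fly, had a summit 219 bp from its start at pooled rank 4956. The best one of the ligand gene Ephrin, at pooled rank 5213, was nearer to the start of ND-49 than to its own.

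None of the 4 Dscam genes, which encode immunoglobulin proteins for self-avoidance and tiling of branches, had a thresholded summit. Dscam1, known for its very large number of splice forms, was just outside, with an intron 2 summit at pooled rank 2532 (signal value 131) and ranks of 2070, 2824 and 7285. Its best regions in replicates 1 and 3, at any place in the gene, ranked 1578 and 2274. The best summits of Dscam3, Dscam4 and Dscam2 had pooled ranks of 6669, 9498 and 10978.

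Both teneurin genes had thresholded summits. Teneurins are large transmembrane proteins that match synaptic partners. Ten-a, the longest gene of the list (292 kb), had 3, all between 160130 and 183076 bp from its 5′ end. The best (X, 12226566 to 12226981, signal value 338) was in intron 5 of 19, 3149 bp upstream of the nearest internal start, and ranked 340, 250 and 443. The next (X, 12203620 to 12204035, signal value 183) lay 30 bp inside an internal start and ranked 1240, 1603 and 1491. The third (X, 12217652 to 12218067, signal value 137) ranked 1844, 3862 and 4315 and was in the top set of replicate 1 alone.

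The summit of Ten-m was at its only start, 48 bp upstream (3L, 22407703 to 22408118, signal value 221). It ranked 318 in replicate 1 and 2157 and 1778 in the others. It was in the top set of all replicates, but replicate 1 stood well above the other 2. The leucine-rich repeat gene caps, whose protein acts in target recognition, had an intron 3 summit 35258 bp from its start (3L, 13263742 to 13264157, signal value 136). The start of CG32119, a gene within caps, was nearer, at 15248 bp. The caps summit ranked 3330, 2343 and 3361, in the top set of replicate 2 alone. The related gene kek1, whose protein restrains the EGF receptor, had its best summit 64 bp upstream of the start at pooled rank 3411, with ranks of 5232, 2356 and 10197.

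Fas3 had the most thresholded summits of the 36 genes, with 4, all in its first intron of 62671 bp. Fas3 encodes a homophilic adhesion molecule of fasciculating axons and of epithelia. The first (2L, 18327528 to 18327943, signal value 191), 7634 bp from the start, ranked 1013, 2782 and 1366. The second (2L, 18340958 to 18341373, signal value 171), 21064 bp from the start, ranked 2457, 1571 and 1711. The first was in the top sets of replicates 1 and 3, and the second in those of replicates 2 and 3. The third (2L, 18345166 to 18345581, signal value 144), 25272 bp from the start, ranked 2258, 1817 and 4453. The last (2L, 18372052 to 18372467, signal value 144), 52158 bp from the start, ranked 4323, 1954 and 3636. No single one of the 4 regions was in the top set of all 3 replicates, yet each replicate had 2 or 3 such regions in the gene. The last 3 were nearer to a start of a gene within Fas3 (Acp36DE or CG34171) than to the Fas3 start.

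Fas2, the gene of the homophilic molecule that bundles motor axons and holds synapses together, had 2. One was 3 bp upstream of its start (X, 4205888 to 4206303, signal value 207) and ranked 2226, 691 and 1092. The other was in intron 2 of 9, 30033 bp from the start (X, 4175852 to 4176267, signal value 167), and ranked 1389, 3285 and 2184. The promoter region was in the top set of all replicates, and the intron region missed that of replicate 2. CadN, which encodes N-cadherin, was just outside the threshold, with a summit 155 bp upstream of a start at pooled rank 2553 and ranks of 1692, 4076 and 6226. Having 2 or more thresholded summits, as NetB, Ten-a, Fas2 and Fas3 did (4 of 36, 11.1%), was seen at 3.64% of all protein-coding genes. These 4 genes are 63.3 to 292 kb long, and the share among genes of such length was not computed.

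Of the 4 receptor tyrosine phosphatase genes, Ptp10D had the best-ranked summit of the whole list, and the others had none in the thresholded list. These phosphatases act together in choices of motor and central axons. The Ptp10D summit (X, 11622907 to 11623322, signal value 391) was 1100 bp from the start, in a first intron of 1395 bp. It ranked 287, 131 and 421, with at most 6 bp between its pooled and replicate summits. The best summits of Ptp99A, Ptp69D and Lar had pooled ranks of 3991, 7800 and 14128. That of Ptp69D was in the 3′ UTR and within 500 bp of the start of the neighbouring CG32112. Lar, at 145 kb the second longest gene of the list, had 20 pooled summits. The partner genes of the Beat and Side system, by which muscle-derived Side attracts motor axons that carry Beat, were low as well. The best pooled ranks were 13751 at side and 19254 at beat-Ia, and the beat-Ia summit was matched in no replicate.

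Nearest to the threshold inside were a summit at caps (pooled rank 2357, signal value 136), one at Ten-a (2326, 137) and one at Fas3 (2136, 144). Nearest outside were summits at robo2 (2488, 132), Dscam1 (2532, 131) and CadN (2553, 130.1). Their replicate ranks overlapped with those of the summits inside.

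Seen by place, the thresholded summits at guidance genes were mostly far inside introns. Of the 21, 15 (71.4%) were in introns, 5 within 500 bp of a start and 1 in a 3′ UTR. For genes over 20 kb the intron share was 66.6%, and for all protein-coding genes 35.4%, each summit counted for every gene it was assigned to. The 15 lay 1100 to 52158 bp from the nearest start of their own gene, with a median of 21064 bp. The median was 3790 bp for intronic summits over all protein-coding genes and 6204.5 bp for those in genes over 20 kb. The introns that held them differed in length too. Their median was 53377 bp at guidance genes, 11789 bp over all and 21430.5 bp in genes over 20 kb. Distances were not adjusted for intron length. The 15 came from 11 genes, with 4 in the first intron of Fas3. Of the 15, 12 (80.0%) were beyond 5 kb, against 58.3% in genes over 20 kb. In the longest intron of the gene there were 12 of 15 (80.0%), against 72.1% in genes over 20 kb and 79.3% in all, and in the first intron 7 (46.7%), against 42.9% and 54.1%. No annotated gene of another name, coding or not, held any of the 21 summits, but 7 were nearer to a start of another protein-coding gene. In the pooled list 386 of the 492 summits at guidance genes (78.5%) were in introns, and 31 of the 36 genes had one within 500 bp of a start. The same shares over all protein-coding genes were not computed, and the pooled list includes background.

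**Figure D4:**
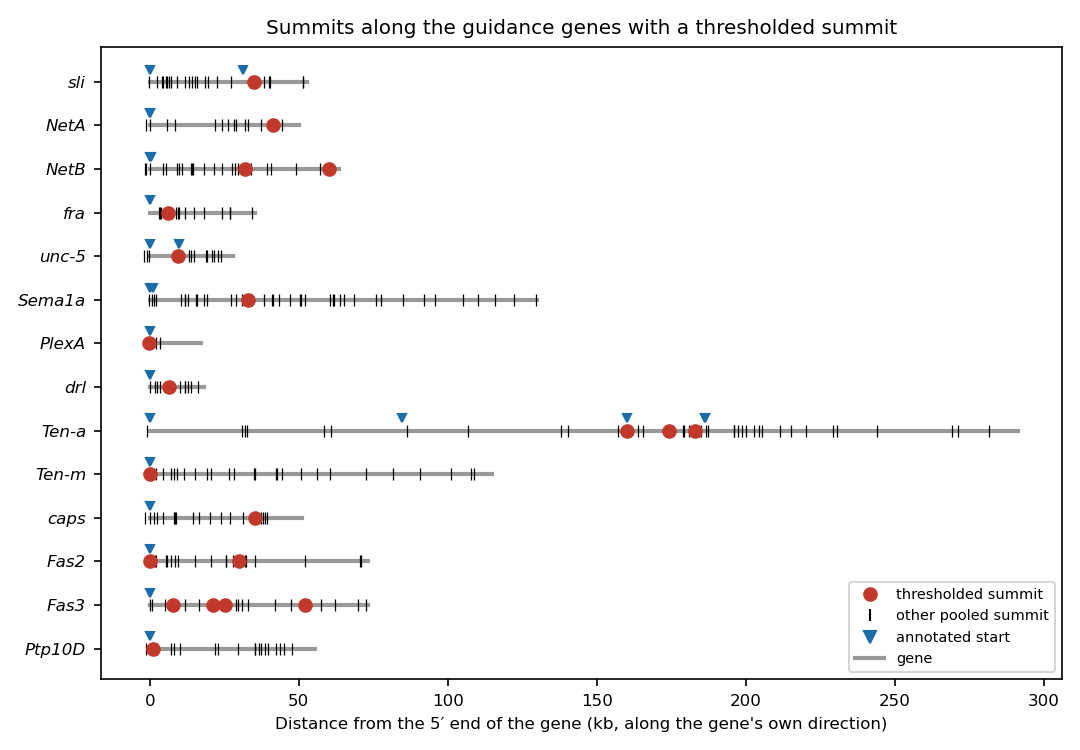
Thresholded summits (red), other pooled summits (black ticks) and annotated starts (blue triangles) along the 14 guidance genes with a thresholded summit, in kb from the 5′ end of the gene. Only PlexA, Ten-m and Fas2 have a thresholded summit at their 5′ end, and the 3 of Ten-a lie between 160130 and 183076 bp.

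By chromosome, all 5 guidance genes on the X had a thresholded summit and 9 of the 31 elsewhere. All 5, NetA, NetB, Ten-a, Fas2 and Ptp10D, are long, with a median of 63.3 kb. Among all protein-coding genes of the X 15.3% had one, and among those over 20 kb 46.0%. For the other large arms the share in genes over 20 kb was 38.0% to 45.8%. The difference was noticed in the data, and its cause was not tested.

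Other genes of the same pathways, 121 in 6 lists, were counted by the same rule, and 38 (31.4%) had a thresholded summit, against 14.6% of all protein-coding genes and 41.5% of those over 20 kb. The lists differ in gene length, so each is given with its median length. Of the further ligands, receptors and cofactors (median 40.2 kb), 10 of 16 (62.5%) had one, highest at dlp (signal value 357, first intron), fz2 (261), Gyc76C (252) and fz (243). The dlp gene encodes a glypican, fz and fz2 encode Frizzled receptors of Wnts, and Gyc76C encodes a receptor guanylyl cyclase in Sema1a signalling. The Gyc76C summit was nearer to the start of SREBP. Wnt5, the ligand of Derailed, had one 1925 bp upstream of its start (156). Of intracellular effectors (median 8.09 kb), 11 of 20 (55.0%) had one, highest at Rtnl1 (737, 257 bp upstream of a start), Mtl (666) and tsr (385). Mtl encodes a Rac-like GTPase and tsr cofilin. The Mtl summit was nearer to the start of CG5611, and the tsr summit was not matched in replicate 1.

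Of 29 adhesion and surface molecules (median 36.6 kb) 9 (31.0%) had one, highest at ds (410, upstream), tutl (319, promoter), kirre (306) and kek5 (222). The ds gene encodes the cadherin Dachsous, and kirre an immunoglobulin protein of muscle fusion and synapse choice that held 11 thresholded summits. The Dpr and DIP families, immunoglobulin proteins that pair in a code between neurons, had 3 of 32 (9.38%), DIP-alpha (181, nearest start ppk8), dpr14 (154, nearest start spidey) and dpr20 (146). Their median length was 32.5 kb. The other Beat and Side genes (median 41.2 kb) had 3 of 20 (15.0%), beat-Ib (460), side-IV (165) and beat-IIIc (136). The shares of the adhesion, Dpr and DIP, and Beat and Side lists were thus below the 41.5% of all genes over 20 kb. That of the Beat and Side list was close to the 14.6% of all protein-coding genes. The shares of the ligands, receptors and cofactors and of the effectors (55.0%) were above both. So was that of the other phosphatases and Comm (2 of 4, median 12.0 kb). The effectors had a median of only 8.09 kb, and 26.3% of all genes from 5 to 20 kb had a thresholded summit. The lists were not matched for length gene by gene. The beat-Ib summit, in intron 2 and nearest to the start of CG13244, had pooled rank 161 and ranked 109, 158 and 312. These ranks were better than any at the 36 guidance genes in the pooled list and in replicates 1 and 3, but in replicate 2 Ptp10D was better, at 131. Of Ptp4E, Ptp52F, Ptp36E and comm3, Ptp4E had a promoter summit (285, ranks 1138, 320 and 366). The comm3 summits numbered 3 (best 232, nearest start Phs), and the best ranked 4518 in replicate 1 but 423 and 438 in the others.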

How the data were processed

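Chromatin immunoprecipitation with sequencing was done on 3 biological replicates, with sonicated fragments of 200 to 800 bp, per the labels. Deposited sheets that describe the files say that each replicate list came from the aligned reads of that replicate and 1 control file, the pooled list from the reads of all 3, and the thresholded list by an irreproducible discovery rate step. Which aligner and peak caller made them is not given in the sources used here. A signal value deposited by the authors is a score with no stated scale. It served only to order and describe the regions of 1 list, and values from pooled reads have no replicate error. The lists differ in length (30000, 24326 and 22698 regions for replicates 1, 2 and 3), so ranks describe a place within a list. Intervals cover counting error only, and read depth is unknown.

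The 5 dm6 lists were used; the dm3 lists were not used here. Coordinates are dm6, 1-based. Every region on the arms lay within the length of its arm in the release 6 reference. Genes were the protein-coding genes of Ensembl release 115 (BDGP 6.54). The 20 thresholded mitochondrial regions were left out. A region was held by a replicate when it overlapped, by at least 1 bp, a region of its top set. Ranks are those of the replicate region that held the summit, or else of the nearest summit within 200 bp. A summit was classed against its own gene, first as promoter (within 500 bp of a start), then as upstream, exon or intron. Introns are numbered in the canonical transcript where it spans the summit. Python 3.11.15, numpy 2.4.6 and scipy 1.17.1 were used, and the assignment of summits was tested on simulated data. With 1 group there were no conditions to compare, and no test was run. The lists and their members were chosen with earlier results of these data known. All members were described, and in the other lists at most 4 genes each, in order of signal value; beyond these, Wnt5 was named after its value was seen.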

Additional observations from a re-analysis of the deposited data

How the results depend on the processing

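No paired analysis was possible because the 3 replicates form 1 group. The count of guidance genes with a thresholded summit was 12 to 15 with upstream windows of 0 to 5000 bp, 14 with any overlap of the region and 11 when the nearest start had to be the gene's own. Under that last rule NetA, NetB and caps were lost. The share of all protein-coding genes moved more with the window than the guidance count, which was 14 at 500, 1000 and 2000 bp. It was 7.65% (0 bp), 12.3% (500 bp), 13.1% (1000 bp), 19.0% (5000 bp) and 10.3% (own start nearest). The better-ranked 0.5 of the thresholded regions left 5 genes and 5 summits, against 8.73% of all genes, and 2 times as many pooled regions gave 23 genes and 52 summits, against 23.4%. Regions held by all 3 replicates left 7 genes and 9 summits, against 9.18%. Without 1 replicate, 9 to 10 genes and 11 to 12 summits were left, against 10.1% to 10.7% of all genes, as fewer regions were kept. The regions were not called anew, so reads of the replicate left out still contributed to them. PlexA and caps were lost whichever replicate was left out. Without replicate 1 the genes NetA, unc-5 and drl were also lost, without replicate 2 NetA, fra and unc-5, and without replicate 3 fra and drl. The genes held by all 3 replicates numbered 3 with top sets 0.5 times as large and 14 with sets 2 times as large. The share of all protein-coding genes at these sizes was not computed. In the top set of replicate 2, 15.3% of all genes had a summit; the use of replicate lists in place of the thresholded one was chosen after seeing the data. The intron share was 55.6% to 83.3% under the alternatives run. Matching replicate regions only where they held the summit, or within 500 bp, left the median ranks as they were. A forkhead match was at 33.3% of the summits within 50 bp and 71.4% within 200 bp, against 31.2% and 72.5% of all thresholded summits.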
